A study of Mus musculus with 6 samples.

Results

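Opposite-strand lncRNAs are long non-coding RNAs named after a protein-coding gene on the other DNA strand, with "os" added to that gene's symbol. They were taken as the rows of the lncRNA count table whose symbol ends in os, or in os and a digit, and whose symbol without that ending is a row of the mRNA count table. This rule found 244 of the 6189 lncRNAs, paired with 207 of the 17973 mRNAs. Of these partner genes, 181 had 1 such lncRNA and 26 had more, with at most 5 rows for 1 partner. A further 7 symbols with the ending had no partner row and were not members. The members were paired by name only, and the rule uses no measured value, but it was chosen with earlier results of these data known.

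The series measured whole lung of C57BL/6 mice in 3 silicosis and 3 control libraries of total RNA. Silicosis is lung fibrosis caused by silica dust. The silicosis mice had silica instilled once into the trachea, 8 mg in a volume of 40 µL of sterile saline, and their lungs were frozen in liquid nitrogen after 90 days. The control libraries are of the same time, 90 days. They are otherwise labelled only as control, and the series text speaks of sterile normal saline samples. No allele, transgene or drug is given for either group, and sex and age are not in the labels. Silicosis libraries are called N129, N136 and N138, and control libraries C7, C8 and C9, as in the labels. Whether each library is a separate mouse is not stated in the labels. The p-values and SDs therefore cover the library to library spread alone, which may be technical, and n counts libraries.

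As background, an opposite-strand transcript can start within the partner gene, share its promoter region in the other direction, or lie beyond its end. Some such RNAs are known to act on their partner locally, through the act of transcription, through chromatin or by pairing with the partner's RNA, while others act elsewhere or have no known function. Dnm3os is the host transcript of the microRNAs miR-199a and miR-214 and is studied in fibroblasts of scarring tissue. Oip5os1, also called Cyrano, is a conserved lncRNA known for directing the destruction of the microRNA miR-7.

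The lncRNA table held between 929132 and 1326986 counts per library, of which the nuclear lncRNA Malat1 took between 47.9% and 58.1%, and the mRNA table held between 33698920 and 44000748. CPM values set each library's TMM-adjusted total to 1000000 within its own table, so CPM of a lncRNA and of an mRNA are on different scales. Whether counting used the strand is not stated, so where exons of a lncRNA and its partner overlap, reads of the pair cannot be told apart. In whole lung, fewer cells of a type and less RNA per cell cannot be told apart either. Lung markers were present in both groups, and some marker lists of cell types differed between them. The summed CPM of 5 lysosomal macrophage genes lay between 1306.6 and 2178.1 in silicosis libraries and between 93.2 and 102.3 in control libraries, with 5 of 5 called higher. Of 5 genes each, 4 endothelial, 4 alveolar type 1 and 5 resting fibroblast genes were called lower, and 3 neutrophil genes were called higher. Of 5 each, 3 ciliated, 3 mesothelium and 1 alveolar type 2 genes were lower, and 1 myofibroblast and 1 heart muscle gene were higher. Club and goblet genes had 2 higher and 1 lower of 5, and T and B cell genes 0 called of 5. Over all tested mRNAs, 31.8% were called. No listed marker was at 0 in all libraries. The part of these cell type markers in the results below was not tested.

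Few opposite-strand lncRNAs passed the test, and their partners changed about as often as other mRNAs. By edgeR's quasi-likelihood test with Benjamini-Hochberg adjustment over all lncRNAs and a threshold of 0.05, 168 of the 244 members could be tested, and 76 had too few counts. Of those 168, 3 were higher and 6 lower in silicosis, which is 5.36%, against 5.78% of all 3320 lncRNAs tested, 3.28% higher and 2.5% lower. The 3 higher were Dnm3os, Plet1os and Il1bos. The 6 lower were Tspan2os, Fhad1os2, Kank4os, Unc45bos, Bcas3os2 and Tbx3os1. The median log2 fold change was -0.08 over the tested members and 0.01 over all tested lncRNAs. An unadjusted p under 0.05 was reached by 25 tested members (14.9%), against 18.7% of all tested lncRNAs. Of the tested members, 37 had no overlap between the groups, 19 of them higher, against 24.0% of all tested lncRNAs without overlap (47.7% of all tested mRNAs). When lncRNA counts were scaled by the totals of the mRNA table, the median of all lncRNAs moved to 0.11 and the members called became 2 higher and 1 lower, namely Dnm3os, Plet1os and Tspan2os.

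Of the 207 partners, 192 were tested, and 23 were higher and 44 lower in silicosis. That is 34.9%, against 31.8% of all 15808 mRNAs tested, 15.3% higher and 16.5% lower. The median log2 fold change of the partners was -0.11, and that of all tested mRNAs was 0.02. Partners were grouped by hand, from their symbols, by the known role of their protein, with earlier results of these data known. Among transcription and nuclear proteins 3 were higher and 14 lower of 54 tested, and in a mixed group of cytoskeleton, traffic, structural and other proteins 4 were higher and 20 lower of 54. Among signalling proteins and receptors 6 were higher and 9 lower of 47. Enzymes, channels and transporters had 10 higher and 1 lower of 37. None of the 28 tested lncRNAs of this group was called by edgeR, DESeq2 or limma-voom. Of all tested lncRNAs 5.78% were called by edgeR, so a count of 28 is too small to set this group apart. An unadjusted edgeR p under 0.05 was reached by 3 of the 28, against 18.7% of all tested lncRNAs. The lncRNA and mRNA comparisons use the same 6 libraries, so the changes of a pair are not independent of each other. They are given side by side. In simulated data, 24% of lncRNAs with a true 2-fold change were called, against 71% of such mRNAs. A called partner beside an uncalled lncRNA therefore does not by itself show that the pair changed differently.

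**Figure D1:**
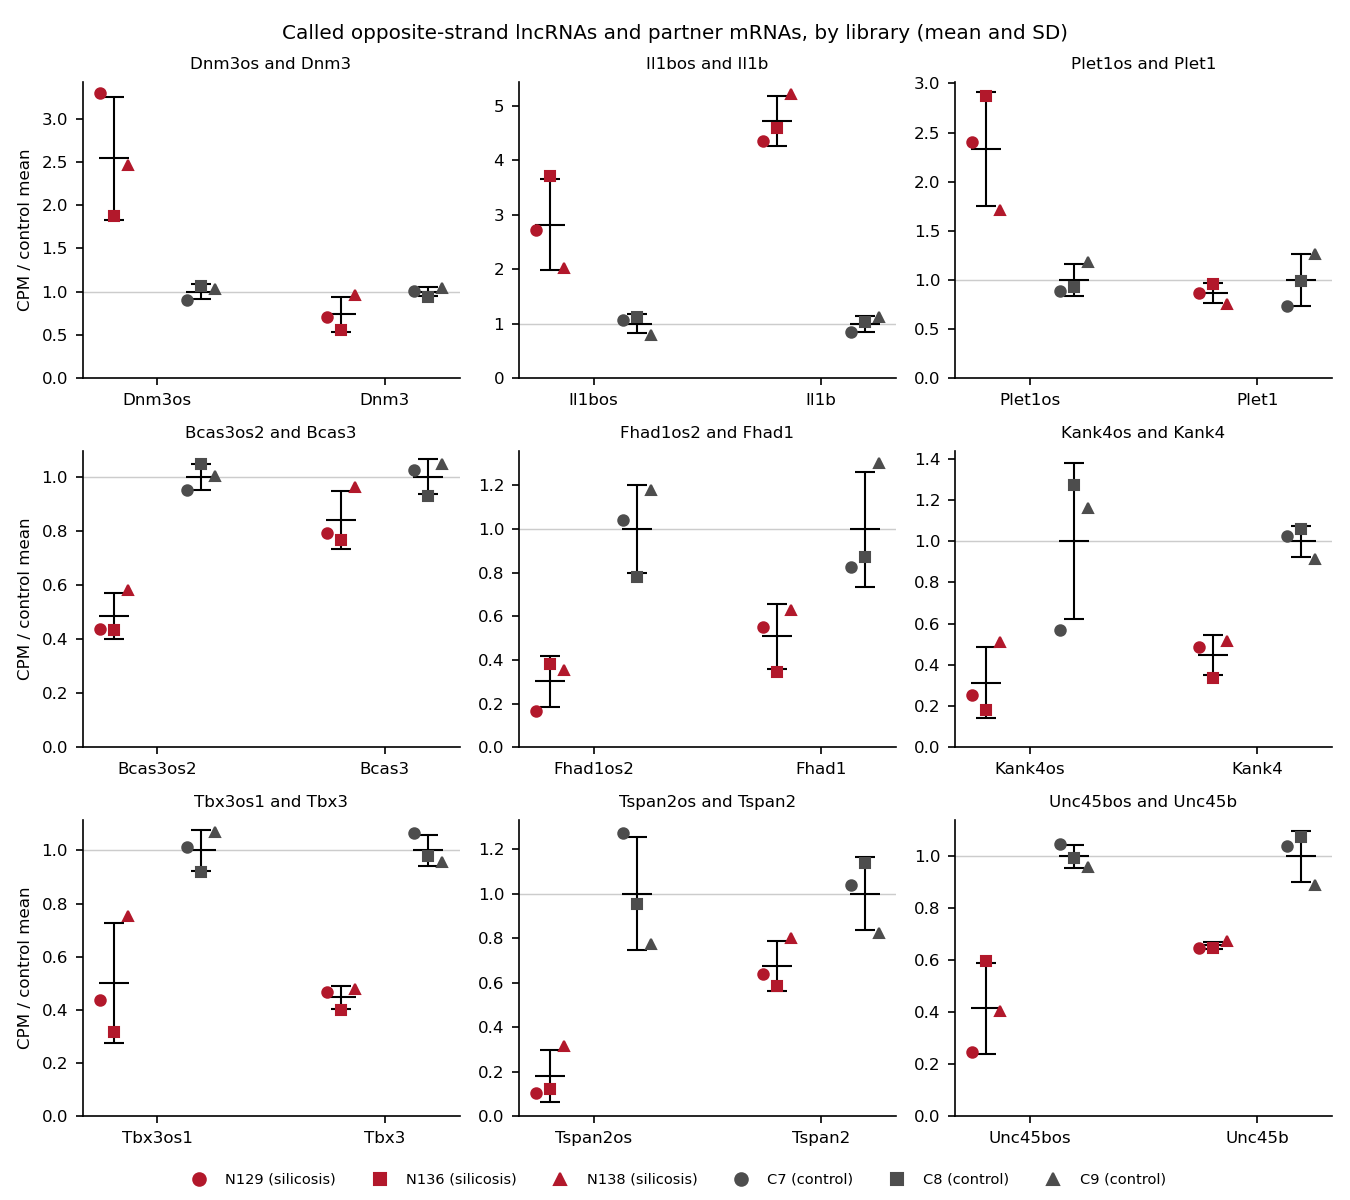
The 9 called opposite-strand lncRNAs and their partner mRNAs, 1 panel a pair. The vertical axis is CPM divided by the control mean of the same RNA. Red symbols are silicosis libraries and grey symbols control libraries, and bars show mean and SD (n = 3). Dnm3os, Il1bos and Plet1os lie above their controls in all 3 silicosis libraries, and Il1b lies above its controls too, while Dnm3 and Plet1 do not. In the 6 lower panels every silicosis value of the lncRNA lies below every control value.

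Dnm3os lies within the gene body of Dnm3, which encodes a dynamin, a GTPase that pinches vesicles off membranes. It had the lowest adjusted p of the members. It starts 260411 bases downstream of the Dnm3 start, on the opposite strand, and none of its 7928 annotated exon bases lies in a Dnm3 exon. Its level was 1333.0, 758.1 and 997.7 CPM in silicosis libraries N129, N136 and N138, against 364.5, 432.7 and 418.3 CPM in control libraries C7, C8 and C9. All 3 silicosis libraries were above all 3 control libraries, and the control values were close together. Dnm3os averaged 1029.6 ± 288.8 CPM in silicosis lungs and 405.2 ± 35.9 CPM in control lungs (SD, n = 3 each), a log2 fold change of 1.35 (SE 0.22, edgeR adjusted p = 0.00175). The call held in all 11 alternatives, with a log2 fold change between 1.10 and 1.52.

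Dnm3 itself had 21.6, 17.0 and 29.4 CPM in silicosis libraries, against 31.1, 28.9 and 32.0 CPM in control libraries. The silicosis value of N138 lay inside the control range and the other values below it. Its log2 fold change was -0.44 (SE 0.18, edgeR adjusted p = 0.0955). Without N138 it was called lower (log2 fold change -0.67, edgeR adjusted p = 0.00628), within a range of 0.00628 to 0.216 over the alternatives. Per kilobase of exon and 1000000 mRNA counts, the level of Dnm3os was 3.84 ± 1.47 in silicosis lungs and 1.37 ± 0.0423 in control lungs, and that of Dnm3 was 0.927 ± 0.256 in silicosis lungs and 1.26 ± 0.0653 in control lungs.

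The Dnm3os exons hold the hairpins of miR-199a and miR-214, whose mature sequences are shown because their host transcript rose. Sequences are from RefSeq on GRCm38.p6, 5′ to 3′, and capitals mark the seed, bases 2 to 8, which pairs with targets. The seeds differ between all of them. The mature microRNAs were not measured in these tables.
miR-199a-5p, chr1:162217844-162217866, plus strand: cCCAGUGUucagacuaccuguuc
miR-199a-3p, chr1:162217883-162217904, plus strand: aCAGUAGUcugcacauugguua
miR-214-5p, chr1:162223397-162223418, plus strand: uGCCUGUCuacacuugcugugc
miR-214-3p, chr1:162223438-162223459, plus strand: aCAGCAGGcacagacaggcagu

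The start region of Dnm3os is shown because the transcription factor Twist1, which binds E-boxes, is known to drive this transcript in mouse development. The window runs from 250 bases before the start to 50 after it, from RefSeq on GRCm38.p6, and capitals mark the E-box letters CANNTG, searched on both strands, which read the same.
Dnm3os start window, chr1:162217373-162217672, plus strand: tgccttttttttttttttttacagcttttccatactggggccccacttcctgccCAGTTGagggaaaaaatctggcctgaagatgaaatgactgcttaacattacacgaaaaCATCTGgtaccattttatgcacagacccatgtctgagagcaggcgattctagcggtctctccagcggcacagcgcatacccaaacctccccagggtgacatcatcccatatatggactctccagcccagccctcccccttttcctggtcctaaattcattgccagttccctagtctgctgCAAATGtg
It holds 3 E-box matches and no TATAAA, with 5 CG pairs and 48.7% G or C. Of 32851 mouse start windows of the same length, 72.3% hold an E-box, with a median of 1, and 13.6% hold TATAAA. The median window has 7 CG pairs and 52.7% G or C.

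Genes set beside Dnm3os, chosen from general knowledge of this transcript and its microRNAs in fibroblasts, went both ways. Of 16 tested, 4 were higher, 3 were lower and 9 were not called, against 31.8% called over all tested mRNAs. Their median log2 fold change was 0.03, against 0.02 over all tested mRNAs. The collagen genes Col1a1 and Col3a1 rose (log2 fold change 1.02 and 0.89), as did Prrx1, a mesenchymal homeobox factor (0.89), and the TGF-beta receptor Tgfbr1 (0.86). Tcf21, a factor of resting lung fibroblasts, fell by 1.78, caveolin Cav1 by 0.91 and the TGF-beta inhibitor Smad7 by 0.64 on the log2 scale. Twist1 had 20, 14 and 12 counts in silicosis libraries, against 12, 6 and 14 in control libraries, and overlapped (log2 fold change 0.54, edgeR adjusted p = 0.452). Of 5 myofibroblast markers, the matrix protein gene Tnc rose to 78.7 ± 13.8 CPM in silicosis lungs, against 27.9 ± 3.37 CPM in control lungs (SD, n = 3 each), a 2.83-fold change with an edgeR adjusted p = 0.000189. The other 4 were not called, with log2 fold changes of -0.15 for Acta2, -0.02 for Postn, -0.18 for Cthrc1 and -0.88 for Tagln. The Tagln groups did not overlap, at 1.15 ± 0.159 CPM in silicosis lungs and 2.11 ± 0.446 CPM in control lungs (edgeR adjusted p = 0.0515). Tagln rests on few counts, a mean of 65.0 per library, against 7246.0 for Acta2. The summed CPM of 5 resting fibroblast markers was between 734.3 and 1090.0 in silicosis libraries and between 2326.2 and 2407.0 in control libraries.

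Among the signalling partners, the cytokine gene Il1b had the lowest adjusted p of all partners. Il1b encodes interleukin 1 beta, a secreted inflammatory cytokine of myeloid cells. It had 71.4, 75.3 and 85.7 CPM in silicosis libraries, against 13.9, 16.9 and 18.4 CPM in control libraries. The groups did not overlap, and the log2 fold change was 2.24 (SE 0.13, edgeR adjusted p = 1.63e-05). Il1bos starts 1242 bases inside Il1b and shares 0.8% of its exon bases with Il1b exons. Il1bos had 33.5, 45.5 and 24.9 CPM in silicosis libraries, against 13.2, 13.8 and 9.8 CPM in control libraries, a mean of 25.7 counts per library. Every silicosis value was above every control value, with a log2 fold change of 1.48 (SE 0.42, edgeR adjusted p = 0.0488). That call stood close to the threshold and held in 2 of 11 alternatives. The adjusted p was 0.0775 with DESeq2, 0.0511 with DESeq2 size factors, 0.0877 with limma-voom and 0.081 with mRNA totals. With edgeR it was 0.105 without C7, 0.131 without C8, 0.166 without C9, 0.145 without N129 and 0.175 without N136. Over all alternatives it ranged from 0.0269 to 0.175, and the log2 fold change from 1.24 to 1.67. Of the myeloid marker lists, 3 of 5 neutrophil and 5 of 5 lysosomal macrophage genes were called higher. The summed CPM of the neutrophil genes was between 220.8 and 317.1 in silicosis libraries and between 56.2 and 104.8 in control libraries. That of the macrophage genes was between 1306.6 and 2178.1 in silicosis libraries and between 93.2 and 102.3 in control libraries. Which cells the Il1b and Il1bos RNA came from was not tested.

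The start windows of this pair are shown because both RNAs were called higher. They are on GRCm38.p6 from RefSeq, and capitals mark CANNTG.
Il1bos start window, chr2:129369652-129369951, plus strand: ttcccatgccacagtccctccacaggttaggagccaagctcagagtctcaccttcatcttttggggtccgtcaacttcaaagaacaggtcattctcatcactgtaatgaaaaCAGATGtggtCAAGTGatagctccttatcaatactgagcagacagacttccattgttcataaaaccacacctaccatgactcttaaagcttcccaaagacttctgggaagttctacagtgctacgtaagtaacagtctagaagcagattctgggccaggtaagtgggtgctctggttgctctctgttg
Il1b start window, chr2:129371090-129371389, minus strand: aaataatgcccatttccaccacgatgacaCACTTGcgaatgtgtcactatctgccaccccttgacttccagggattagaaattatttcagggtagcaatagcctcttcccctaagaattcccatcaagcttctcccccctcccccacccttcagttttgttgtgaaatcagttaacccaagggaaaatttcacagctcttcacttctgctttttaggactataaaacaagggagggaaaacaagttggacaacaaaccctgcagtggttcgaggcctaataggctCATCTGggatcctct
Each holds 2 E-box matches. The Il1b window holds 1 TATAAA and the Il1bos window none. The windows have 2 CG pairs in Il1bos and 3 in Il1b.

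Tspan2os had the lowest log2 fold change of the called members. Its partner Tspan2 encodes a tetraspanin, a membrane organising protein. Tspan2os had 3.53, 4.04 and 10.4 CPM in silicosis libraries, against 42.0, 31.5 and 25.5 CPM in control libraries. The groups did not overlap, with the highest silicosis value in N138, and the silicosis values rest on few counts. The within-library log2 ratio of Tspan2os to Tspan2 differed by -1.85 between silicosis and control with 0.5 counts added. With 5 counts added it differed by -1.22, so the size of the drop depends on this setting. The log2 fold change was -2.41 (SE 0.51, edgeR adjusted p = 0.00899). Tspan2 had 123.9, 113.7 and 154.8 CPM in silicosis libraries, against 201.2, 220.8 and 159.1 CPM in control libraries, and N138 and C9 nearly met. Its log2 fold change was -0.57 (SE 0.15, edgeR adjusted p = 0.0189). The Tspan2os call ended without C7 (edgeR adjusted p = 0.0611) and without N129 (0.0616), in a range from 0.000589 to 0.0616. The Tspan2 call ended without C7 (edgeR adjusted p = 0.0626), C8 (0.0744), N129 (0.0674) and N136 (0.0526), in a range from 0.00165 to 0.0744. The pair is arranged head to head. Tspan2os starts 888 bases inside Tspan2 and shares 14.9% of its exon bases with Tspan2 exons.

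The signalling genes Igf1 and Lrp8 and the enzyme gene Has2 rose more than 2-fold, and their lncRNAs were not called or not tested. Igf1, a growth factor, had 94.1, 127.8 and 92.8 CPM in silicosis libraries, against 31.9, 38.1 and 28.4 CPM in control libraries (log2 fold change 1.68, edgeR adjusted p = 0.000151). Igf1os had 13.2, 19.2 and 20.1 CPM in silicosis libraries, against 10.7, 15.8 and 2.94 CPM in control libraries. The Igf1os groups overlapped, with a log2 fold change of 0.83 (SE 0.58). Lrp8, a receptor for apolipoprotein E and reelin, rose with a log2 fold change of 1.53 (edgeR adjusted p = 0.000836). Lrp8os2 had 23.8, 29.3 and 20.1 CPM in silicosis libraries, against 11.5, 8.87 and 15.7 CPM in control libraries. Its groups did not overlap, yet the edgeR adjusted p was 0.232 at a log2 fold change of 1.01 (SE 0.46). Lrp8os1 and Lrp8os3 had too few counts to test. Has2, an enzyme that makes hyaluronan, had 6.29, 5.18 and 4.01 CPM in silicosis libraries, against 0.522, 1.01 and 0.887 CPM in control libraries (log2 fold change 2.68, edgeR adjusted p = 0.00045). Has2os was below the filter, with 10, 12 and 17 counts in silicosis libraries, against 3, 3 and 4 counts in control libraries. Those counts did not overlap between the groups.

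Of the transcription factor partners, Tbx3, Gata5 and Hoxb5 fell by more than 2-fold. Hnf4a and Dmrta2 rose by more than 2-fold at low levels (log2 fold change 2.91 and 1.40, edgeR adjusted p = 0.0267 and 0.0369), and their lncRNAs had too few counts to test. Tbx3, a T-box repressor of lung mesenchyme, had 142.2, 121.4 and 145.6 CPM in silicosis libraries, against 324.1, 297.5 and 291.5 CPM in control libraries. All silicosis values were under every control value (log2 fold change -1.16, SE 0.10, edgeR adjusted p = 0.000114). Tbx3os1 had 142.9, 103.1 and 245.4 CPM in silicosis libraries, against 330.8, 299.6 and 348.7 CPM in control libraries. Its groups did not overlap, and N138 was the highest silicosis library (log2 fold change -0.99, SE 0.27, edgeR adjusted p = 0.0422). That call held in 5 of 11 alternatives. It ended with mRNA totals (edgeR adjusted p = 0.281) and without C7 (0.115), C8 (0.108), C9 (0.136), N129 (0.191) or N136 (0.124), in a range from 0.00135 to 0.281. Tbx3os2 averaged 12.8 counts per library, and its CPM of 1.76, 6.06 and 12.8 in silicosis libraries overlapped with 21.4, 20.7 and 5.88 in control libraries (log2 fold change -1.19, SE 0.68, edgeR adjusted p = 0.366).

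The start windows of the head to head lncRNAs Tbx3os1 and Tspan2os are shown because both were called lower and start inside their partner. The distances from the partner's start, 696 and 888 bases, are from the GENCODE annotation. The windows use RefSeq starts on GRCm38.p6, which can differ from those of GENCODE, as for Tspan2os and Tspan2. They are in lower case throughout since neither holds CANNTG.
Tbx3os1 start window, chr5:119671459-119671758, minus strand: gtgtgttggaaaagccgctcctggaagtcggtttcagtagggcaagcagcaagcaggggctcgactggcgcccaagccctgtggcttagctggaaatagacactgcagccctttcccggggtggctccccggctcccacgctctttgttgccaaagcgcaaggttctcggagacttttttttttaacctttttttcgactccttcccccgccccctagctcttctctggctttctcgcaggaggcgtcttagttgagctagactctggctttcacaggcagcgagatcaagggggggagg
Tspan2os start window, chr3:102735368-102735667, minus strand: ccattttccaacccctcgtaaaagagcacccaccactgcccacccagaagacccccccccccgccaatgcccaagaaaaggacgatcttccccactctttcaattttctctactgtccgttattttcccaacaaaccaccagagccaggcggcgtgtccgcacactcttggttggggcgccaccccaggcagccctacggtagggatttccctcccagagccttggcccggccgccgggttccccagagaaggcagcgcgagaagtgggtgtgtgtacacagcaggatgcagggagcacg
The Tbx3os1 window has 14 CG pairs and 57.3% G or C, and the Tspan2os window 15 CG pairs and 60.7%.

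Gata5, a zinc finger factor, had 8.14, 8.14 and 10.6 CPM in silicosis libraries, against 23.3, 19.4 and 23.6 CPM in control libraries (log2 fold change -1.30, SE 0.15, edgeR adjusted p = 0.000413). Gata5os had 13.2, 11.1 and 20.1 CPM in silicosis libraries, against 42.8, 28.6 and 44.1 CPM in control libraries. Neither overlapped between the groups. The log2 fold change of Gata5os was -1.36 (SE 0.40), with an edgeR adjusted p of 0.0565, which was 0.0456 without the filter on low counts and 0.0297 without N138, in a range from 0.0297 to 0.192. Gata5os shares 15.4% of its exon bases with Gata5 exons. Hoxb5, a homeobox factor of lung patterning, had 4.75, 3.12 and 4.84 CPM in silicosis libraries, against 13.1, 13.1 and 12.4 CPM in control libraries (log2 fold change -1.60, SE 0.19, edgeR adjusted p = 0.000473). Hoxb5os had 14.1, 26.3 and 19.2 CPM in silicosis libraries, against 21.4, 34.5 and 25.5 CPM in control libraries, and its groups overlapped (log2 fold change -0.45, SE 0.41).

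Jun, a subunit of the AP-1 factor, had 313.5, 143.5 and 134.2 CPM in silicosis libraries, against 396.8, 351.6 and 400.8 CPM in control libraries. N129 lay near the controls and the other silicosis libraries far below them. Its log2 fold change was -0.96 (SE 0.29, edgeR adjusted p = 0.031) and -1.47 without N129. The call ended with DESeq2 (adjusted p = 0.067) and with edgeR without C7 (adjusted p = 0.0788), C8 (0.0586), C9 (0.0828), N136 (0.0851) or N138 (0.0598), in a range from 0.000269 to 0.0851. Junos, which overlaps Jun head to head over 689 bases, had 555.8, 615.6 and 737.9 CPM in silicosis libraries, against 510.2, 544.1 and 492.7 CPM in control libraries. Each silicosis value of Junos was above each control value, but it was not called (log2 fold change 0.30, SE 0.20, edgeR adjusted p = 0.439).

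Among partners of the mixed group of cytoskeleton, traffic, structure and other proteins, lncRNAs of 4 further genes fell and 1 rose. Kank4 encodes an ankyrin repeat protein that links to the actin cytoskeleton. Kank4os had 28.2, 20.2 and 56.9 CPM in silicosis libraries, against 63.4, 141.9 and 129.3 CPM in control libraries, so N138 and C7 were close. Its log2 fold change was -1.64 (SE 0.38, edgeR adjusted p = 0.0166). Kank4 had 30.0, 20.7 and 31.8 CPM in silicosis libraries, against 63.0, 65.1 and 56.2 CPM in control libraries, with no overlap (log2 fold change -1.16, SE 0.16, edgeR adjusted p = 0.000874). Kank4os shares no exon base with Kank4. The Kank4os call ended with mRNA totals (edgeR adjusted p = 0.0912) and without C8 (0.108), C9 (0.0831), N129 (0.0961) or N136 (0.0571), in a range from 0.000105 to 0.108.

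Unc45b is a chaperone of muscle myosin. Unc45bos had 31.8, 76.8 and 52.1 CPM in silicosis libraries, against 134.9, 128.1 and 123.4 CPM in control libraries. The groups were well apart, and the silicosis libraries were spread more widely (log2 fold change -1.27, SE 0.30, edgeR adjusted p = 0.0176). Unc45b had 18.2, 18.2 and 18.9 CPM in silicosis libraries, against 29.1, 30.1 and 24.9 CPM in control libraries (log2 fold change -0.61, SE 0.11, edgeR adjusted p = 0.0039). The Unc45bos call ended with mRNA totals (edgeR adjusted p = 0.0579) and without C7 (0.061), C8 (0.0723) or N129 (0.0962), in a range from 0.00152 to 0.0962. Of its exon bases 19.5% lie in Unc45b exons. The summed CPM of 5 heart muscle markers was between 83.3 and 148.7 in silicosis libraries and between 114.0 and 323.4 in control libraries, with 1 of 5 called, and higher.

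Fhad1 encodes a protein with a forkhead-associated domain, which binds phosphopeptides. Fhad1os2 had 5.29, 12.1 and 11.2 CPM in silicosis libraries, against 32.9, 24.6 and 37.2 CPM in control libraries. No silicosis value reached the controls (log2 fold change -1.72, SE 0.46, edgeR adjusted p = 0.0361). Fhad1 had 21.7, 13.5 and 24.8 CPM in silicosis libraries, against 32.4, 34.3 and 51.2 CPM in control libraries, with a log2 fold change of -0.98 (SE 0.24, edgeR adjusted p = 0.0143). The Fhad1 call ended without C9 (log2 fold change -0.74, edgeR adjusted p = 0.0512), the highest of its range from 0.000175. The Fhad1os2 call ended with limma-voom (adjusted p = 0.056), with mRNA totals (edgeR adjusted p = 0.0965) and without C7 (0.103), C8 (0.0723), C9 (0.125) or N129 (0.153), in a range from 0.0177 to 0.153. The other row of this partner, Fhad1os1, was not called (log2 fold change -1.07, SE 0.52, edgeR adjusted p = 0.28). Of 5 ciliated cell markers 3 were called lower, with a summed CPM between 442.2 and 529.4 in silicosis libraries and between 470.2 and 680.7 in control libraries.

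Bcas3 encodes a protein linked to cell migration. Bcas3os2 had 32.6, 32.3 and 43.3 CPM in silicosis libraries, against 70.8, 77.9 and 74.4 CPM in control libraries. Its groups were clearly apart (log2 fold change -1.04, SE 0.30, edgeR adjusted p = 0.048). Bcas3os1 had 262.9, 234.5 and 454.7 CPM in silicosis libraries, against 302.8, 281.9 and 309.5 CPM in control libraries, and its groups overlapped (log2 fold change 0.09, SE 0.25). Within libraries, the log2 ratio of Bcas3os2 to Bcas3os1 was -2.99, -2.84 and -3.38 in silicosis, against -2.09, -1.85 and -2.05 in control. The difference of -1.07 showed no overlap (two-sided exact permutation p = 0.1, the smallest that 3 against 3 allows). The same comparison of 2 rows overlapped for Fhad1os2 to Fhad1os1 (-0.79, exact permutation p = 0.3) and for Tbx3os1 to Tbx3os2 (0.23, exact permutation p = 0.5). Bcas3 was not called (log2 fold change -0.25, SE 0.11, edgeR adjusted p = 0.12) but was called lower without N138 (-0.36, edgeR adjusted p = 0.0276), in a range from 0.0276 to 0.293. The Bcas3os2 call ended with limma-voom (adjusted p = 0.0505), with mRNA totals (edgeR adjusted p = 0.232) and without C7 (0.0934), C8 (0.157), C9 (0.107), N129 (0.169) or N136 (0.122), in a range from 0.0297 to 0.232. Bcas3os2 shares no exon base with Bcas3.

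Plet1 encodes a surface protein of epithelial cells that is held by a lipid anchor. Plet1os had 185.3, 221.4 and 132.3 CPM in silicosis libraries, against 68.3, 72.0 and 91.1 CPM in control libraries. All silicosis libraries were above the controls (log2 fold change 1.22, SE 0.26, edgeR adjusted p = 0.00849). Plet1 had 30.4, 33.6 and 26.5 CPM in silicosis libraries, against 25.8, 34.5 and 44.2 CPM in control libraries, and overlapped (log2 fold change -0.21, SE 0.19, edgeR adjusted p = 0.427). The Plet1os call ended without C7 (edgeR adjusted p = 0.0567), C8 (0.0699) or N129 (0.0556), in a range from 0.000993 to 0.0699. Plet1os shares 21.0% of its exon bases with Plet1 exons.

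Further pairs of this group had a partner called at 2-fold or more and a lncRNA that was not called. The missing call alone does not show that the pair changed differently. Tmem132c, a transmembrane protein gene, fell by 1.09 on the log2 scale (SE 0.15, edgeR adjusted p = 0.001), and Tmem132cos had 8.82, 8.09 and 10.4 CPM in silicosis libraries, against 10.7, 19.7 and 23.5 CPM in control libraries (log2 fold change -0.96, SE 0.53). Atcay, the gene of caytaxin, rose at a low level, with 1.56, 1.03 and 0.946 CPM in silicosis libraries, against 0.199, 0.192 and 0.287 CPM in control libraries (log2 fold change 2.38, SE 0.42, edgeR adjusted p = 0.00317). Atcayos had 37.1, 18.2 and 24.9 CPM in silicosis libraries, against 22.2, 10.8 and 24.5 CPM in control libraries, and overlapped (log2 fold change 0.47, SE 0.44). In all, 18 partners of 22 lncRNA rows were called with at least a 2-fold change. Of these rows, 8 had too few counts to test, and 3 of the 14 tested lncRNAs were called, Il1bos, Tbx3os1 and Kank4os, against 5.78% of all tested lncRNAs.

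**Figure D2:**
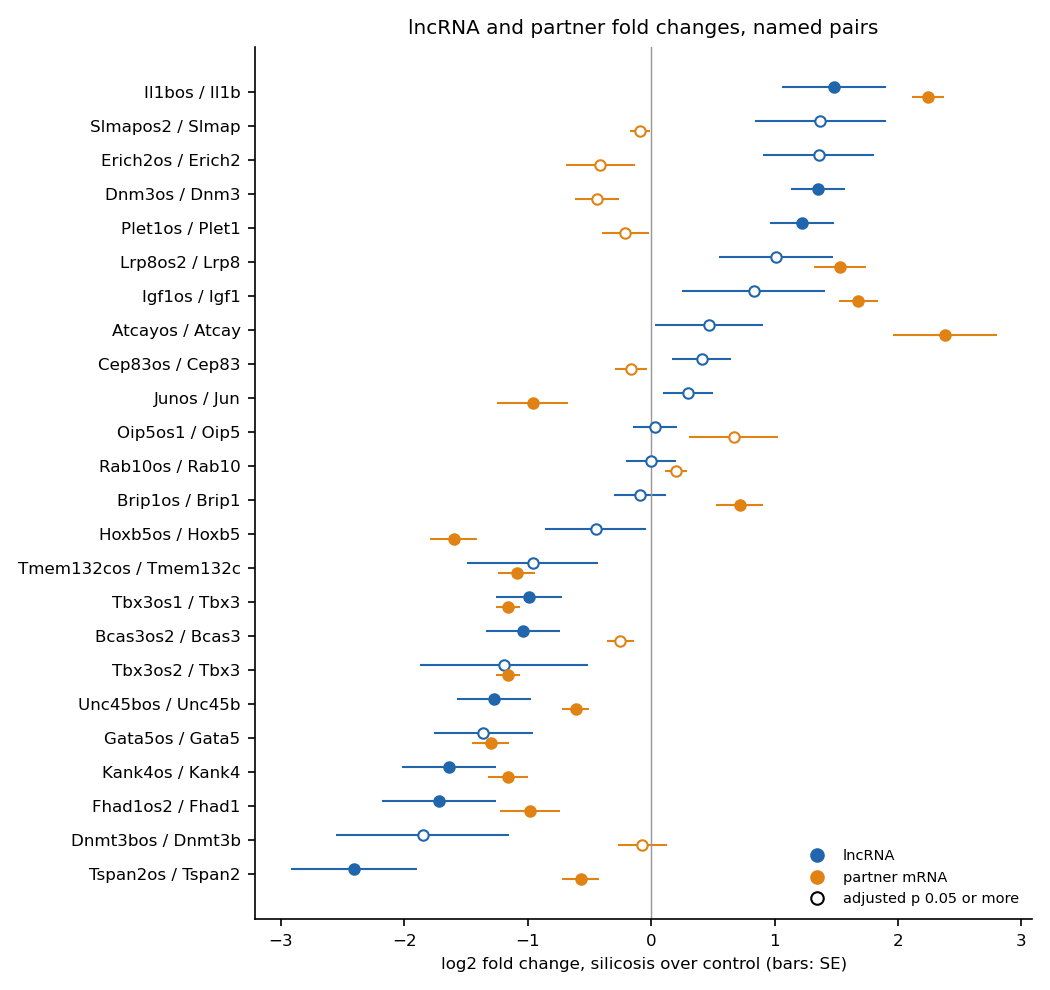
Log2 fold changes, silicosis over control, of the named lncRNAs (blue) and of their partner mRNAs (orange), with bars for the SE and filled symbols for an adjusted p under 0.05. Rows run by the lncRNA value, with Il1bos at 1.48 on top and Tspan2os at -2.41 at the bottom. Bars are longer for most lncRNAs than for their partners.

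Of the most abundant members, Dnm3os was called, and Oip5os1, Brip1os, Rab10os, Cep83os and Junos were not. These members are too few to show whether abundant ones were called more or less often than other lncRNAs. Oip5os1 had 10642.9, 14304.2 and 8855.9 CPM in silicosis libraries, against 10598.4, 12665.7 and 9867.0 CPM in control libraries. The silicosis values spanned the control values, and the log2 fold change was 0.03 (SE 0.18). Brip1os had 1914.4, 3002.0 and 1594.4 CPM in silicosis libraries, against 2137.0, 2611.0 and 2197.1 CPM in control libraries (log2 fold change -0.09, SE 0.21). Its partner Brip1, a helicase of DNA repair, had 8.16, 8.74 and 6.7 CPM in silicosis libraries, against 5.49, 4.76 and 4.04 CPM in control libraries. The Brip1 groups did not overlap (log2 fold change 0.72, SE 0.19, edgeR adjusted p = 0.0189). The Brip1 call ended without C8 (edgeR adjusted p = 0.0617), C9 (0.06), N129 (0.0617) or N136 (0.0603), in a range from 0.00408 to 0.0617. Rab10os and Cep83os had log2 fold changes of 0.00 (SE 0.20) and 0.41 (SE 0.24). Their partners Rab10, a GTPase of membrane traffic, and Cep83, a centriole protein, had log2 fold changes of 0.20 (SE 0.09) and -0.16 (SE 0.13), and none of the 4 was called. Of the 24 tested members with a mean of 200 or more counts per library, 2 were called, against 48 of all 378 lncRNAs at that level (12.7%).

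Most opposite-strand lncRNAs were far less abundant than their partners. Per kilobase of exon and 1000000 mRNA counts, 202 of 239 compared lncRNAs were below their partner in all 6 libraries and 12 were above it in all 6. The level of Oip5os1 was 38.0 ± 1.05 in silicosis lungs and 35.7 ± 3.61 in control lungs on this scale, and that of Oip5, a centromere protein gene, was 0.918 ± 0.291 in silicosis lungs and 0.576 ± 0.137 in control lungs (SD, n = 3 each). The level of Brip1os was 9.23 ± 1.09 in silicosis lungs and 9.56 ± 0.489 in control lungs, and that of Brip1 was 1.06 ± 0.141 in silicosis lungs and 0.639 ± 0.0969 in control lungs. By contrast, the level of Il1bos was 0.323 ± 0.0297 in silicosis lungs and 0.111 ± 0.0229 in control lungs, and that of Il1b was 40.6 ± 3.87 in silicosis lungs and 8.60 ± 1.21 in control lungs. Dnm3os, Oip5os1 and Brip1os were thus above their partners in every library, and Il1bos below.

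The ratio of lncRNA to partner within a library uses no scaling of either table, so it also carries each library's overall share of lncRNA counts. The log2 of total lncRNA over total mRNA counts was between -5.56 and -4.67 in silicosis libraries and between -5.39 and -5.00 in control libraries, 0.17 higher on average in silicosis. The ratio was taken as log2 of the lncRNA count plus 0.5 over the partner count plus 0.5, for the 163 pairs with both RNAs tested. With 3 libraries against 3, the two-sided exact permutation p cannot go below 0.1, so no pair could pass 0.05. In 45 pairs, 27.6%, the groups did not overlap, with 28 higher and 17 lower in silicosis. By CPM, 24.0% of all tested lncRNAs and 47.7% of all tested mRNAs did not overlap. Ratios were taken for member pairs only, and the split into higher and lower carries the overall difference in lncRNA share as well. The difference of means lay between -1.98 and 1.87, with a median of 0.16, which is close to that overall difference of 0.17. With each table scaled by its own totals, the median difference of the log2 fold changes was 0.07. The Dnm3os to Dnm3 ratio was 0.86, 0.02 and 0.24 in silicosis libraries, against -1.50, -1.46 and -1.52 in control libraries, a difference of 1.87. Raw Dnm3os counts were thus above Dnm3 counts in the 3 silicosis libraries and below them in the 3 control libraries.

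The lowest ratio differences were those of Dnmt3bos, Tspan2os and Atcayos, and their order depended on the setting. With 5 counts added they were -1.14, -1.22 and -1.40, and as the difference of the fits -1.77, -1.85 and -1.90. The ratio of Dnmt3bos to Dnmt3b, a DNA methyltransferase gene, was -7.20, -4.35 and -5.45 in silicosis libraries, against -3.91, -3.47 and -3.67 in control libraries, a difference of -1.98. Dnmt3bos averaged 10.7 counts per library and was not called (log2 fold change -1.85, SE 0.70, edgeR adjusted p = 0.147). The log2 fold change of Dnmt3b was -0.07 (SE 0.20). The N129 value rests on 0.882 CPM of Dnmt3bos. The Tspan2os ratio was -10.04, -10.11 and -8.69 in silicosis libraries, against -7.30, -8.15 and -7.85 in control libraries, a difference of -1.85. The Atcayos ratio differed by -1.74 and moved with the rise of Atcay.

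Ratios that were higher in silicosis included Erich2os to Erich2, with a difference of 1.76. Erich2os had 34.4, 77.8 and 29.7 CPM in silicosis libraries, against 9.87, 23.7 and 21.6 CPM in control libraries, and was not called (log2 fold change 1.36, SE 0.45, edgeR adjusted p = 0.0897). It was called with no filter on low counts (edgeR adjusted p = 0.0363) and without N138 (0.0317), in a range from 0.0317 to 0.396. Slmapos2 to Slmap, the gene of a sarcolemma-associated protein, differed by 1.68, with lncRNA values of 19.4, 36.4 and 21.7 CPM in silicosis libraries, against 17.3, 4.93 and 6.86 CPM in control libraries (log2 fold change 1.37, SE 0.53, edgeR adjusted p = 0.153). The ratio differed by 1.46 for Plet1os, 1.45 for Junos and 1.25 for Hoxb5os, none of which overlapped. It differed by 0.02 for Gata5os, by 0.16 for Tbx3os1 and by -0.44 for Kank4os, and these overlapped. For Il1bos the ratio was lower by a difference of -0.72, without overlap, although both RNAs rose.

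**Figure D3:**
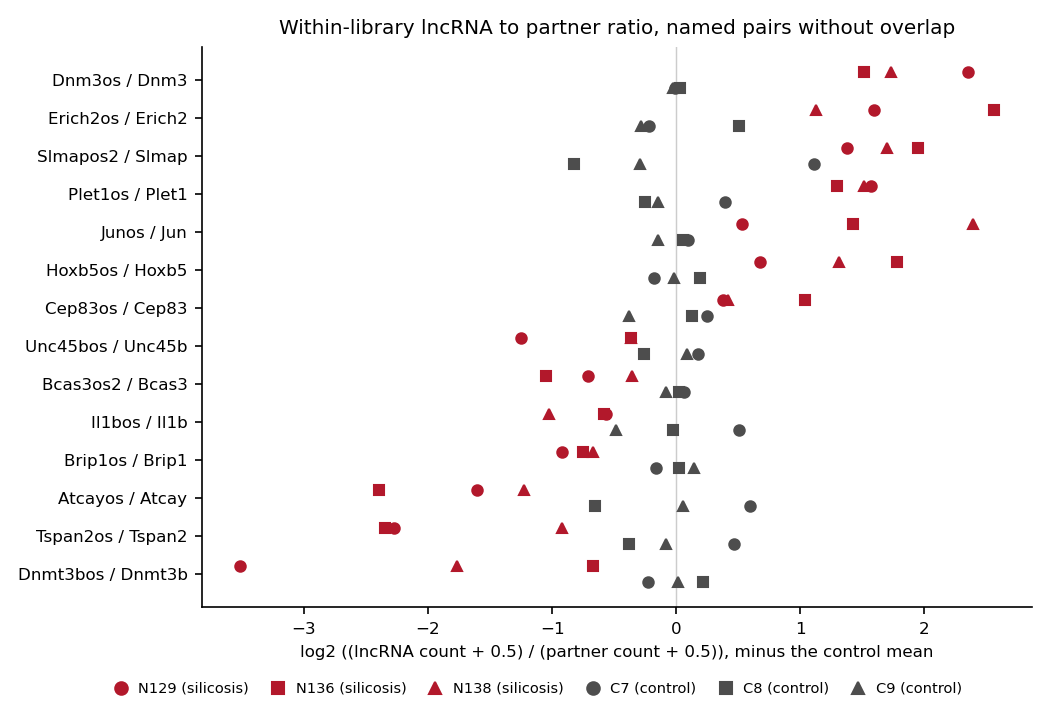
Within-library log2 ratio of lncRNA to partner counts, 0.5 added to each, shown as the difference from the control mean of the pair. Red symbols are silicosis libraries and grey symbols control libraries, for the named pairs whose groups did not overlap. The silicosis values of Dnm3os lie to the right of its control values, with a difference of means of 1.87, and those of Tspan2os and Dnmt3bos to the left, with differences of -1.85 and -1.98.

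The position relative to the partner could be read for 239 pairs from GENCODE vM21 on GRCm38, and in all 239 the lncRNA was on the opposite strand. Of these, 168 lay antisense over the partner, 32 overlapped it head to head, and 26 started within 1000 bases of it in the other direction without overlap. A further 9 lay beyond its end and 4 diverged from farther away. Among antisense overlapping lncRNAs 3 were higher and 4 lower of 117 tested, and among the head to head ones 2 were lower of 21, against 5.78% of all tested lncRNAs called. None of the 17 tested divergent neighbours within 1000 bases was called by edgeR, DESeq2 or limma-voom, and 0 had an unadjusted edgeR p under 0.05. None of the 8 tested beyond the partner's end was called by the same tools, and 2 had an unadjusted edgeR p under 0.05. The median log2 fold changes were -0.08, -0.08, -0.34 and 0.04 in that order. Counts this small do not tell the arrangements apart, and no difference between them was tested.

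Exon overlap varied among members. Of the 239, 104 had no exon base in a partner exon, 85 had at least 10% and 15 at least 50%. Leaving out those with 10% or more of their exon bases in any other gene's exons, and the unmatched ones, kept 143 members, 104 of them tested, of which 2 were higher and 4 lower (5.77%, against 5.78% of all tested lncRNAs). This alternative was chosen after the data were seen. The members it removed from the called ones were Plet1os, Tspan2os and Unc45bos, with 21.0%, 14.9% and 19.5% in partner exons.

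**Figure D4:**
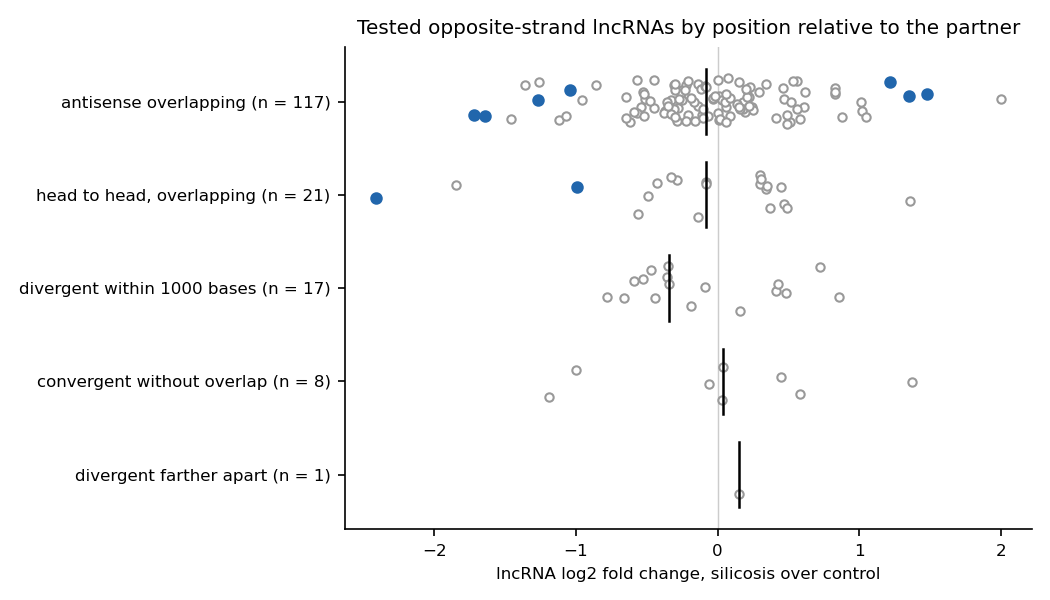
Log2 fold changes, silicosis over control, of tested opposite-strand lncRNAs by their position relative to the partner. Each circle is 1 lncRNA, blue where called, and the black line is the median, which is -0.08 for antisense overlapping (n = 117) and head to head (n = 21) and -0.34 for divergent within 1000 bases (n = 17). Called lncRNAs appear in the 2 upper rows.

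Other named antisense lncRNAs gave no call. Of 5 rows ending in as or ot with a partner, Dlx1as, Gnasas1, Ifngas1, Kcnq1ot1 and Sox2ot, 4 were tested, and none was called by edgeR, DESeq2 or limma-voom. Their unadjusted edgeR p-values were between 0.301 and 0.779. Kcnq1ot1, an imprinted antisense RNA, averaged 12207.2 ± 1441.8 CPM in silicosis lungs and 13012.3 ± 406.3 CPM in control lungs (SD, n = 3 each). In the authors' deposited table, 8 of the members had an adjusted p under 0.05, 2 higher and 6 lower. In that authors' deposited table Adap2os was among them (log2 fold change -0.88, adjusted p = 0.0392), while Il1bos and Bcas3os2 had adjusted p of 0.0858 and 0.0509. Of the partners, 70 had an adjusted p under 0.05 in the authors' deposited table, 23 higher and 47 lower.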

How the data were processed

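RNA of whole mouse lung was measured in 6 libraries, 3 silicosis and 3 control, grouped by the treatment label. Trizol extraction and standard Illumina library preparation are given per the labels' protocols. DESeq2 1.36.0, featureCounts 2.0.0, Trimmomatic 0.39, Bowtie2, HISAT2 and the build GRCm39 appear in the submitters' processing notes, without roles. The strand setting and annotation are not stated in the sources used. The authors deposited raw whole-number counts per gene and library, in separate lncRNA and mRNA tables. Their deposited comparison tables give p-values and log2 fold changes of silicosis over control, and the method behind them is not stated in the sources used.

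Each table was fitted whole with edgeR 4.0.16 in R 4.3.3 after filterByExpr and TMM scaling, with a two-sided quasi-likelihood test with Benjamini-Hochberg adjustment at 0.05. The filter kept 3320 of 6189 lncRNAs (99.15% of counts) and 15808 of 17973 mRNAs (99.98%). The SE is the log2 fold change divided by the square root of F. Ratios used 0.5 added counts and an exact permutation test over the 6 libraries. Libraries within a group were distinct, with chi-square per degree of freedom of at least 5.22. Positions and exon lengths came from GENCODE vM21 on GRCm38 and sequences from RefSeq on GRCm38.p6, both earlier than the authors' GRCm39. Of the members, 144 had a start window in RefSeq, and 168 partners had one.

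The lists, roles and members were chosen with earlier results of these data known. Named were the called members, Dnm3os, the 6 most abundant and up to 12 whose partner was called at 2-fold or more. The 6 largest ratio differences without overlap were named too. Adap2os, Fhad1os1 and Bcas3os1, and the partners Hnf4a and Dmrta2, were added after their values were seen. Alternatives were DESeq2 1.42.0, its size factors, limma-voom (limma 3.58.1), no filter, mRNA totals for lncRNAs, each library left out, 1 row per partner, other ratio settings, and, added after the data were seen, removal of members with exon overlap and the difference of both fits. The tests were also run on simulated data with known changes. Circular RNAs were not used here.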

Additional observations from a re-analysis of the deposited data

How the results depend on the processing

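Of 3 members called higher, no filter on low counts gave 6, DESeq2, its size factors, limma-voom and mRNA totals gave 2 each, 1 row per partner gave 3, and leaving out a library gave between 1 and 5. There was 1 without C7, C8 or N129, and 5 without N138. Of 6 called lower, DESeq2 gave 7, its size factors 6, limma-voom 4, no filter 8, mRNA totals 1, 1 row per partner 5, and leaving out a library between 0 and 7. There were 0 without N129 by edgeR, with 11 lower at an unadjusted p under 0.05, 1 without C7 or C8, 2 without C9, 4 without N136 and 7 without N138. Partners called higher numbered between 16 and 26 and lower between 32 and 47 with a library left out, against 23 and 44. Pairs with a ratio that did not overlap numbered 45, 47 with 5 added counts, 45 with a minimum of 10 counts, and between 54 and 75 with a library left out, the highest without N136. A group of 2 libraries separates more easily than one of 3, so these last counts are not comparable with 45. The 24 named ratios moved by less than the spread between libraries in all 9 alternatives. Dnm3os kept its call in 11 of 11 alternatives, and no called gene changed direction in any. Why calls were lost was not tested. No paired analysis was possible because the groups share no replicate numbers. The tested members had a median of 43.0 counts per library, and 76 of 244 had too few counts to test.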
